A study of Mus musculus with 38 samples.

Results

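The cytosolic ribosomal protein genes were followed across 5 histone marks in mouse embryonic stem cells (mESCs) with and without IκBα, the inhibitor of NF-κB encoded by Nfkbia. Members were the protein-coding genes of GENCODE vM21 on chromosomes 1 to 19 whose symbol is Rpl or Rps followed by a digit, together with Rplp0, Rplp1, Rplp2 and Rpsa. Rps6k kinase genes and pseudogenes were left out, which gave 82 members of 20807 protein-coding genes. Of these, 49 carry an Rpl symbol (large subunit) and 33 an Rps symbol (small subunit). The symbol rule also took in 9 paralogs or other genes, namely Rpl3l, Rpl7l1, Rpl10l, Rpl22l1, Rpl36al, Rpl39l, Rps27l, Rps27rt and Rps19bp1, and the other 73 are called canonical here.

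The marks had been profiled by chromatin immunoprecipitation with sequencing (ChIP-seq) in ES-E14TG2a mESCs grown in serum with leukemia inhibitory factor and collected at 0 h. IκBα-WT (WT) cells were compared with IκBα-KO (KO) cells, in which Nfkbia had been disrupted with CRISPR-Cas9. The study's methods describe the ChIP replicates as biological, and the study worked with several independent clones of each genotype. The labels do not tie a library to a clone, so p-values measure the spread between these libraries. There were 3 WT and 3 KO libraries for each of H3K4me3, H3K27ac, H3K4me1, H3K27me3 and H3K9me3, and the authors had called enriched sequence in each library against the input of its genotype. The lists held 21283 to 26109 calls for H3K4me3, without read counts. The ChIP reads inside the calls of a library numbered 22753066 to 28105919 for H3K27ac, 34485130 to 35688997 for H3K4me1, 8860024 to 10870082 for H3K27me3 and 8048837 to 11248081 for H3K9me3. At the Nfkbia promoter the highest H3K4me3 fold enrichment was 10.3 to 13.8 in WT and 3.705 to 5.207 in KO libraries. Of 7 embryonic stem cell markers, 6 had H3K4me3 in all 6 libraries (Pou5f1, Sox2, Nanog, Klf4, Zfp42 and Tfcp2l1) and Esrrb had none. H3K27me3, the Polycomb mark, was called in all 6 at Esrrb and Klf4. Of 4 fibroblast markers (Col1a1, Col1a2, Pdgfra and Thy1), all 4 had H3K27me3 in all 6 libraries, while 3 also had H3K4me3 and 2 H3K27ac in all 6.

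Ribosomal proteins assemble with ribosomal RNA into the large and small subunits that translate messenger RNA, and every growing cell makes them in near-equal amounts from genes scattered over the genome. Their transcripts usually begin inside a run of pyrimidines, the 5′ terminal oligopyrimidine (TOP) tract, which lets the cell adjust their translation together. H3K4me3 and H3K27ac mark active promoters, H3K4me1 flanks promoters and covers enhancers, H3K27me3 is laid down by Polycomb repressive complex 2, and H3K9me3 is best known from heterochromatin.

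Promoter sequences from RefSeq (GRCm38.p6) were matched by symbol to 62 of the 82 members. Within 10 bases of the RefSeq start, 35 of the 62 (56.5%) had a C followed by at least 4 pyrimidines on the sense strand, against 31.4% of 15686 promoters. A tract of at least 8 bases was present in 32.3% of the members and 8.19% of all promoters. In the 300-base window around the start, counting both strands, CCGGAA (the core of sites for ETS-family factors) occurred in 50.0% of members and 20.0% of all promoters. ATGGCG occurred in 30.6% against 11.6% and AAGATGG in 14.5% against 6.42%. TATAAA occurred in 6.45% against 12.9%, and CTTTT in 58.1% against 50.0%. ATGGCG and AAGATGG can share the letters ATGG. The 80 bases from 60 upstream to 20 downstream of the RefSeq start are shown for some of the members whose H3K4me3 calls differed between the genotypes, with Rplp0 as a comparison. Capitals mark the pyrimidine tract that begins with C, and also CCGGAA or its reverse complement TTCCGG.
Rpsa, chr9:120127706-120127785, plus strand: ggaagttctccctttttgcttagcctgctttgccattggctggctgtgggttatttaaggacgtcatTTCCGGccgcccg
Rpl19, chr11:98026650-98026729, plus strand: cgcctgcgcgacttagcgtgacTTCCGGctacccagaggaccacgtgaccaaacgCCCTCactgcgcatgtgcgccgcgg
Rpl28, chr7:4792905-4792984, plus strand: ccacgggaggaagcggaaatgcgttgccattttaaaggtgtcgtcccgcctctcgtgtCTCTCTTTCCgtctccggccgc
Rpl18, chr7:45718011-45718090, plus strand: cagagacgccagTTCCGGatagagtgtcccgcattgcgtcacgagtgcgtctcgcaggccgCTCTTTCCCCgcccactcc
Rps19, chr7:24884532-24884611, plus strand: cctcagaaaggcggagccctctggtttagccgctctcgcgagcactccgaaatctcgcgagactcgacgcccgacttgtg
Rps28, chr17:33824543-33824622, minus strand: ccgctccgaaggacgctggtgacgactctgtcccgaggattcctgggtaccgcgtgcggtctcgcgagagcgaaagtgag
Rpl10l, chr12:66284382-66284461, minus strand: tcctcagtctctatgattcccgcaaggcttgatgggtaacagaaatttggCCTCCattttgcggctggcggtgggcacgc
Rplp0, chr5:115559407-115559486, plus strand: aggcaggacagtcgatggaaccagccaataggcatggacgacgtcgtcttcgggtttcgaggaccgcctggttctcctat
Rpl28 and Rpl18 had tracts of 10 bases at the start, and Rpl19 and Rpl10l had tracts of 5 bases. Rpsa, Rps19, Rps28 and Rplp0 had none within 10 bases of the start, which is a statement about these letters only. The GENCODE gene start, from which distances are counted below, lay 77 bp from the RefSeq start at Rpsa, 91 bp at Rpl28, 221 bp at Rps19 and 2614 bp at Rpl18, and coincided with it at Rpl19, Rps28, Rpl10l and Rplp0.

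Nearly all members carried the active marks in both genotypes. An H3K4me3 call lay within 2 kb of the transcription start site (TSS) in all 6 libraries for 77 of 82 members (93.9%), against 55.76% of all protein-coding genes. For H3K27ac the share was 79 of 82 (96.34% against 55.86%) and for H3K4me1 it was 78 of 82 (95.12% against 71.54%). H3K27me3 was called in any library at 10 members (12.2%), against 47.86% of genes.

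The 5 members without H3K4me3 in all 6 libraries were all paralogs or other genes. Rps19bp1, which encodes a partner of RPS19 and not a ribosomal protein, had no call of any mark within 2 kb. Rpl3l, the muscle paralog of Rpl3, had no H3K4me3 call but had H3K27ac and H3K4me1 in all 6 libraries. Rps27rt, an intronless copy of Rps27, had no H3K4me3 call, had H3K27ac in WT replicate 1 and the 3 KO libraries, and had H3K27me3 in all 6. Rpl39l, a paralog of Rpl39 best known from the testis, had H3K4me3 in WT replicate 3 (6.007) and in the 3 KO libraries (7.719, 6.626 and 9.577), always at low fold enrichment. H3K27ac was missing from at least 1 library at Rpl10l, Rps27rt and Rps19bp1. H3K4me1 was missing from at least 1 library at Rps19bp1 and at the canonical genes Rpl41, Rpl17 and Rps25. The other paralogs, Rpl7l1, Rpl22l1, Rpl36al and Rps27l, had all 3 active marks in all 6 libraries, like most canonical genes.

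Of the 3 active marks, only H3K4me3 and H3K27ac at Rpl10l were called in all 3 KO libraries with no WT call, and no member had the reverse. Rpl10l is an intronless paralog of the X-linked Rpl10 and is best known for its role in male germ cells. Its TSS lies at position 66284401 of chromosome 12, on the minus strand. No H3K4me3 call lay within 2 kb in any WT library. The KO libraries had calls of 5.529 fold in replicate 1, of 5.859 and 6.123 fold in replicate 2, and of 6.796 and 4.497 fold in replicate 3. H3K27ac was likewise called only in KO, with 78.75 and 80.0 ChIP reads per kb in replicate 1, 53.72 and 57.5 in replicate 2, and 52.22 and 54.29 in replicate 3. H3K4me1 covered 1000 bp of the window in each WT library and 2600, 2601 and 2400 bp in the KO libraries (difference 1629 bp, SE 75, adjusted p = 0.00398 in limma over 14885 promoters). The WT calls all ended at position 66283400, where bins of 200 bp meet. With the replicate number as a block, the adjusted p was 0.179 (limma). H3K9me3 was called at Rpl10l in WT replicates 1 and 2 (78 and 82 ChIP reads) and in no KO library. Over all genes, a call in 3 of 3 KO and 0 of 3 WT libraries occurred at 0.288% of promoters for H3K4me3 and at 0.303% for H3K27ac. With 1 member of 82 for each mark, the count itself does not set the members apart.

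The marks were arranged around the TSS of the members in a way that differed from the average promoter. H3K4me3 covered the base 2 kb downstream of the TSS at 52.44 to 78.05% of the members per library, against 3.9 to 5.96% of all genes, while 2 kb upstream it covered 2.44 to 7.32% of the members. At the TSS itself the shares were closer, 47.56 to 60.98% for the members and 38.79 to 44.36% for all genes. H3K27ac covered the TSS at 93.9 to 96.34% of the members and still covered the base 2 kb downstream at 93.9 to 97.56%. H3K4me1 was sparse around the TSS, where H3K4me3 was frequent: it covered the TSS at 8.54 to 15.85% of the members, against 44.66 to 51.55% of all genes, and rose to 84.15 to 91.46% of the members 1 kb upstream. Its share at the TSS was also low at translation and TOP genes (5.556 to 16.67%) and ribosome biogenesis genes (4.348 to 21.74%). Mitochondrial ribosomal protein genes had 37.18 to 58.97%. Members are short genes, with a median length of 3368 bp over the 77 with H3K4me3 in all libraries against 24790 bp for all 11602 such promoters, so that a window of 2 kb downstream covers most of many members. The RefSeq start lay within 10 bp of the GENCODE start at 20 of the 62 matched members, and up to 3553 bp away. The part of the choice of start in the distances given here and below was not tested.

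**Figure D1:**
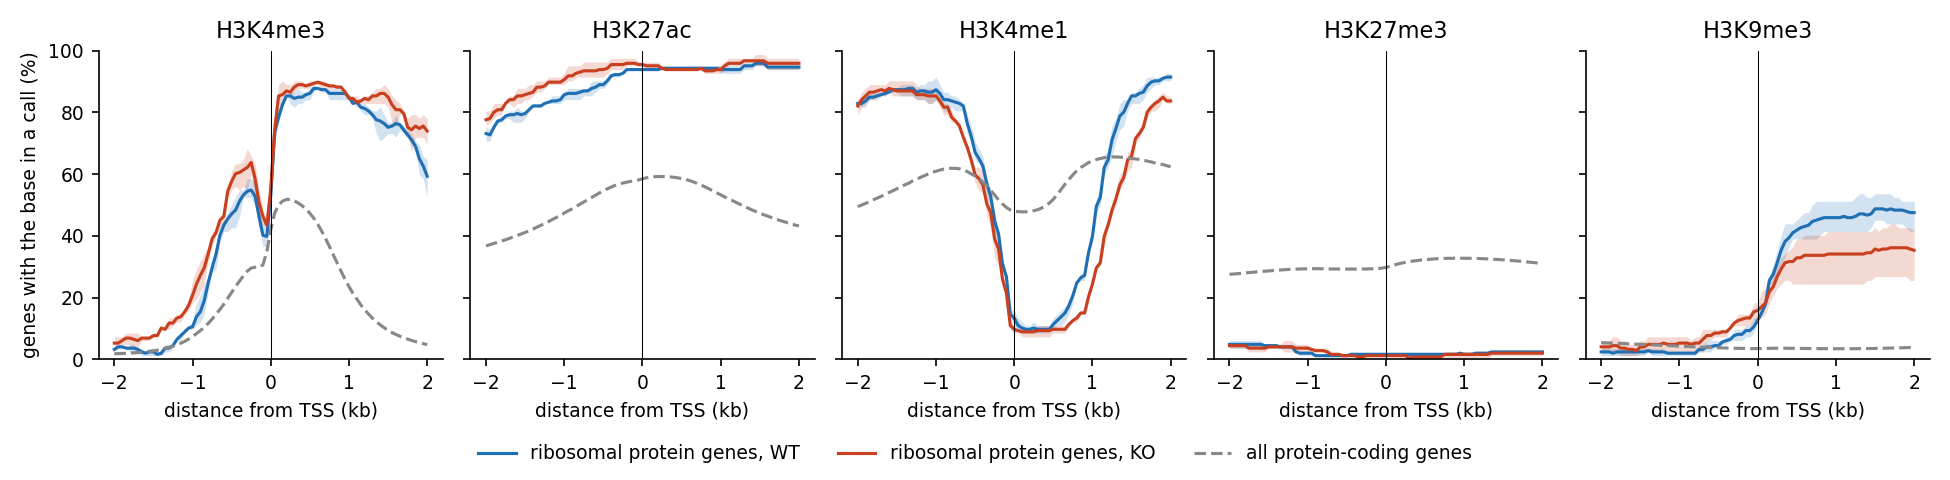
Share of genes (%) with each base in a call, against the distance from the TSS (kb), for the 82 members in WT (blue) and KO (red) and for all protein-coding genes (grey, dashed, mean of 6 libraries). Lines are means of 3 libraries and bands their range. H3K4me3 of the members lay on both sides of the TSS and reached further downstream, H3K9me3 lay mostly downstream, and H3K4me1 dropped to 8.54 to 15.85% of members at the TSS.

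The H3K4me3 calls at the members were also higher and wider than at the typical promoter. Fold enrichment here is the highest value over input that the peak caller gave to any call reaching within 2 kb of the TSS. The summit of such a call can lie outside the window, and mean summit distances of the members ran from -4022 to 2209 bp. Averaged over the 6 libraries, it had a median of 14.02 over the 77 members (range 7.841 to 20.92) and 11.34 over all 11602 promoters, and 84.4% of the members exceeded the latter. The whole length of the calls that reached into the window had a median of 2866 bp over the members and 1313 bp over all promoters. Translation and TOP genes outside the ribosome, such as elongation factors, were alike in both (medians of 14.01 fold and 2862 bp, 16 genes), while mitochondrial ribosomal protein genes were closer to all promoters (12.08 fold and 1429 bp, 74 genes). The summit lay a median of 386.8 bp downstream of the TSS in the members, against 241.7 bp.

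Among the members with the highest fold enrichment were Rpl13a (20.92 on average), whose call also reached the promoter of another gene, and Rpl31 (20.52). The lowest were Rpl17 (7.841 fold), Rpl24 (8.171) and Rps14 (8.938). Counted inside the window, Rpl7 (3539 bp), Rpl7a (3336 bp) and Rps28 (3326 bp) had the most H3K4me3, and Rpl17 (419 bp), Rps25 (815.3 bp) and Rps24 (903.3 bp) the least. Calls at Rpl17 and Rps25 reached out of the window, with mean whole lengths of 2708 and 1553 bp, against 903.3 bp at Rps24. The TSS of another protein-coding gene lay in the window of 20 members, among them Rpl7 (Rdh10), Rpl7a (Med22), Rps28 (Ndufa7), Rps14 (Ndst1), Rps24 (Polr3a) and Rps25 (Trappc4), and their values include its calls. Across the 77 members, fold enrichment and whole call length had a Pearson correlation of 0.472 and a Spearman correlation of 0.424, as a description of genes measured in the same libraries.

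Between the genotypes, the H3K4me3 fold enrichment of the members as a group moved little, whereas single members moved in both directions. The median over the 77 members was 13.08, 11.41 and 14.48 in WT and 13.18, 14.78 and 14.81 in KO replicates 1 to 3, so the libraries overlapped. Over all promoters the medians were 10.64, 9.74 and 11.79 in WT and 10.74, 11.5 and 11.75 in KO. After the median of each library was set equal, limma over 11602 promoters called 10 members higher and 6 lower in KO at an adjusted p under 0.05. The 3 libraries of a genotype share the same H3K4me3 input, so these p-values do not cover the spread between inputs. The part of the input in these calls was not tested. Of all promoters 10.0% were called higher and 10.8% lower, so the 13% and 7.79% of the members were near the background. Without setting the medians equal, 11 members were higher and 4 lower, and 1315 and 745 of all promoters. Mitochondrial ribosomal protein genes had 13 higher and 10 lower of 74, and ribosome biogenesis genes 5 and 4 of 23. The median log2 KO/WT was 0.01 over the members and -0.01 over all promoters.

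The largest rises were at Rpl8, Rps19, Rpl18 and Rplp2, which encode parts of both subunits. Rpl8 (TSS at position 76904078 of chromosome 15) had a fold enrichment of 7.482, 10.01 and 7.867 in WT and 19.59, 19.99 and 23.89 in KO (log2 KO/WT 1.25, SE 0.198, adjusted p = 0.00181, limma). Rps19, the gene most often mutated in Diamond-Blackfan anemia, had 10.57, 7.023 and 9.578 in WT and 20.05, 20.35 and 20.25 in KO (log2 1.10, SE 0.18, adjusted p = 0.00205, limma). The groups did not overlap at either gene. Rpl18 had 14.26, 7.042 and 9.006 in WT and 23.45, 17.58 and 20.34 in KO (log2 0.99, SE 0.238, adjusted p = 0.0119, limma). Rplp2, which encodes an acidic protein of the ribosomal stalk, had 5.524, 5.326 and 11.15 in WT and 10.69, 15.81 and 16.92 in KO (log2 0.96, SE 0.238, adjusted p = 0.0135, limma), and its WT replicate 3 lay above KO replicate 1. The other stalk genes did not pass the test: Rplp0 had 13.87, 13.06 and 13.71 in WT and 15.91, 17.88 and 16.83 in KO (adjusted p = 0.338, limma), and Rplp1 had means of 14.7 and 14.6 (adjusted p = 0.719, limma).

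The largest falls were at Rpsa, Rpl19, Rpl28 and Rps13. Rpsa, which encodes a small subunit protein also known as the laminin receptor, had a fold enrichment of 21.57, 16.69 and 23.16 in WT and 7.104, 10.04 and 12.86 in KO (log2 -1.14, SE 0.203, adjusted p = 0.00277, limma). Rpl19 had 20.43, 16.36 and 25.29 in WT and 12.37, 7.045 and 13.33 in KO (log2 -1.04, SE 0.235, adjusted p = 0.00917, limma). The WT and KO libraries did not overlap at Rpsa, Rpl19, Rpl28 (log2 -0.86, SE 0.211, adjusted p = 0.0131, limma) or Rps13 (log2 -0.71, SE 0.176, adjusted p = 0.0132, limma). The other members called were Rps7, Rpl21, Rps16, Rpl23a, Rps26 and Rpl3 (higher) and Rpl35a and Rpl34 (lower), with log2 changes from -0.64 to 0.89. With each library left out in turn, 6 of the 16 calls held every time (Rpl8, Rps19, Rps16, Rpsa, Rpl19 and Rps13). Rpl28 lost its call without KO replicate 1, Rpl18 without WT replicate 2 or KO replicate 1, and Rplp2 without WT replicate 1 or 2 or KO replicate 2 or 3. Without WT replicate 1 or KO replicate 2 the number of members higher in KO was 6, without KO replicate 3 it was 5, and without KO replicate 1 the number lower was 3.

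**Figure D2:**
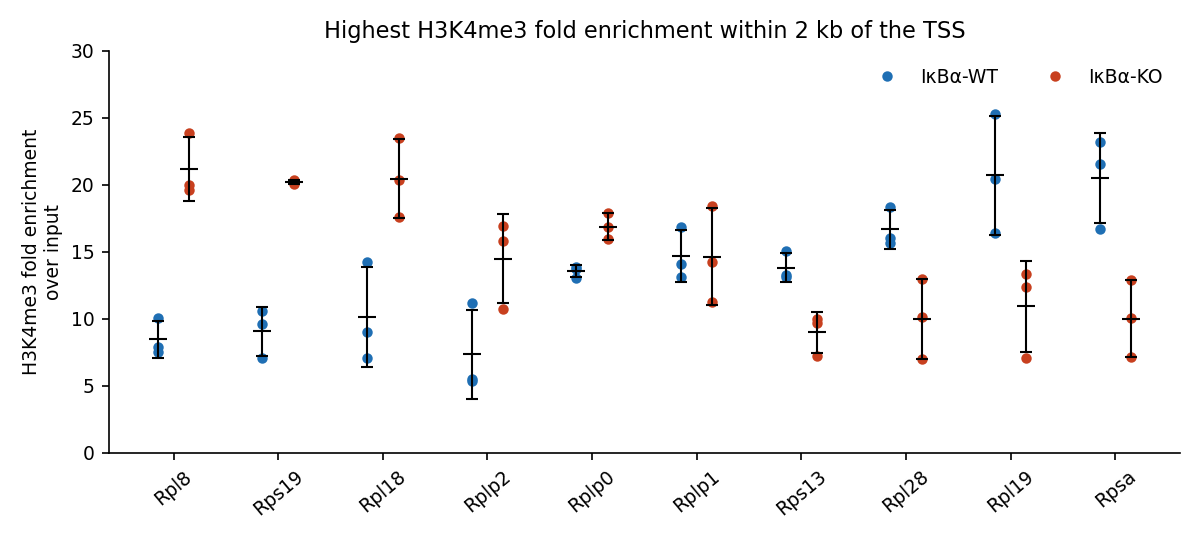
Highest H3K4me3 fold enrichment over input of the calls reaching within 2 kb of the TSS (linear axis) in each of 3 WT (blue) and 3 KO (red) libraries, for the 4 largest rises, the 4 largest falls and Rplp0 and Rplp1. Black marks are means and SD. At Rpl8 the KO libraries lay between 19.59 and 23.89 and the WT libraries at or below 10.01, and at Rpsa the order was the opposite.

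H3K4me3 calls at the members were longer in KO than in WT. Counted as whole calls, their median length was 2563, 2486 and 2598 bp in WT (2549 ± 57.3, SD, n = 3) and 2737, 3224 and 3312 bp in KO (3091 ± 310.0, SD, n = 3). All 3 KO medians lay above all 3 WT medians. The same held for mitochondrial ribosomal protein genes (1294 ± 42.0 and 1448 ± 67.7 bp) and ribosome biogenesis genes (1996 ± 56.4 and 2458 ± 3.61 bp). It did not hold for translation and TOP genes or for all promoters. Over all promoters the medians were 1260 ± 50.0 bp in WT and 1359 ± 74.9 bp in KO (SD, n = 3). After the median of each library was set equal, limma called 17 of 77 members (22.1%) longer in KO and 0 shorter at an adjusted p under 0.05, where 3.96% of all 11602 promoters were longer and 1.83% shorter. Without setting the medians equal, 16 members were longer and 0 shorter (607 and 88 of all promoters). At an unadjusted p under 0.05, 39 of 77 members were called in either direction, and 2677 of all 11602 promoters. The median difference was 449.8 bp over the members and -4.5 bp over all promoters, and 62 of 77 members were above 0. Longer calls changed by more base pairs at other promoters too: of the 2254 others among the longest when promoters were split into 5 equal groups by call length (1941 bp and above), 10.6% were longer in KO with a median difference of 157 bp, and 67 members fell in that group. Ribosome biogenesis genes had 8 of 23 longer (34.8%) and a median of 435.8 bp, against 3 of 74 mitochondrial ribosomal protein genes (4.05%) and 2 of 16 translation and TOP genes (12.5%). On a log2 scale the median was 0.178 over the members and -0.00501 over all promoters, and 3 members were longer and 0 shorter (Rpl7a, Rps28 and Rpsa, with 207 longer and 161 shorter of all promoters). Whole call length was taken up after the profiles had been seen.

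Large differences among the members called were at Rpl7a, Rps28 and Rpsa. At Rpl7a the calls measured 2941, 2705 and 3428 bp in WT and 4937, 4565 and 5029 bp in KO (difference 1720 bp, SE 186, adjusted p = 0.00255, limma). At Rps28 they went from 2873, 2524 and 3190 bp to 4366, 4614 and 4408 bp (difference 1502 bp, SE 152, adjusted p = 0.00197, limma). At Rpsa, whose fold enrichment fell, the calls measured 2425, 2557 and 2460 bp in WT and 3627, 3814 and 4228 bp in KO (difference 1310 bp, SE 138, adjusted p = 0.00226, limma). The calls at Rps13, also lower in fold enrichment, measured 2591 ± 149.4 bp in WT and 3606 ± 74.84 bp in KO (SD, n = 3), and those at Rpl34 likewise rose in length (2642 ± 184.3 and 3454 ± 201.2 bp, SD, n = 3). Rps7 rose in both measures. Rpl31, Rps12, Rpl38, Rpl17, Rps21, Rpl9, Rps3, Rpl13 and Rpl14 were also called longer. With each library left out, Rpl7a, Rps28, Rpsa, Rps13, Rpl31, Rpl38, Rpl17 and Rpl13 kept their calls every time. Rps3 lost its call in each of the 6 fits, and Rps12, Rps21 and Rpl9 kept theirs only without WT replicate 1, KO replicate 1 and KO replicate 2, respectively. Rpl14 lost its call without any 1 of the WT replicates, Rps7 without WT replicate 2 or KO replicate 2 or 3, and Rpl34 without WT replicate 1 or 2 or KO replicate 1 or 3. Calls at 4 of the 17 held the TSS of another gene, among them Rpl7a, Rps28 and Rpl9. With each library left out in turn 9 to 20 members were called, the lower counts being 11 without WT replicate 1, 9 without WT replicate 2 and 10 without KO replicate 3. KO replicates 2 and 3 also had the most H3K4me3 calls over the genome (25696 and 26109, against 21283 to 23137 in the other 4 libraries), and the part of this in the longer calls was not tested.

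**Figure D3:**
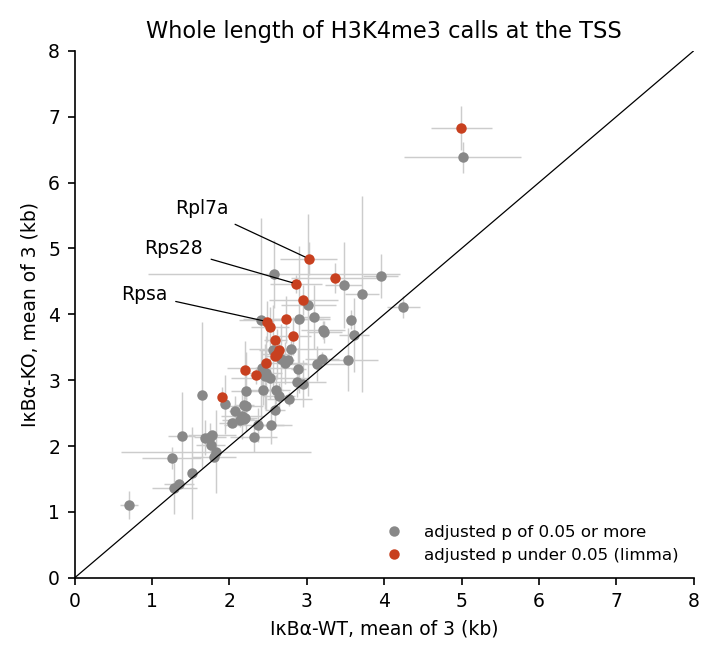
Whole length (kb) of the H3K4me3 calls that reach within 2 kb of the TSS, mean of 3 KO against mean of 3 WT libraries, for the 77 members with a call in all 6 libraries. Bars are SD, the line marks equal length, and the 17 members with an adjusted p under 0.05 are red. Most members lay above the line.

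Inside the window of 2 kb the same measure was bounded, and fewer members passed. The median H3K4me3 length in the window was 2248 ± 92.2 bp in WT and 2402 ± 74.6 bp in KO for the members, and 1242 ± 49.0 and 1338 ± 72.8 bp for all promoters (SD, n = 3). Limma called 4 members with more H3K4me3 in KO and 0 with less, where 4.31% of promoters had more and 2.38% less. At an unadjusted p under 0.05, 16 of 77 members were called in either direction, and 2776 of all 11602 promoters. Without setting the medians equal, 6 members had more and 0 less (675 and 100 of all promoters). The median difference was 53 bp over the members within 2 kb of the TSS and -17.5 bp within 1 kb. The members with more H3K4me3 in the window included Rps28 (difference 837.7 bp, SE 139, adjusted p = 0.00916), Rps21 (707 bp, SE 146, adjusted p = 0.0206) and Rpl32 (424.3 bp, SE 108, adjusted p = 0.0453, all limma). Within 1 kb of the TSS the difference at Rps28 was -44.67 bp. Rps28 held its call with each library left out, Rps21 held it only without KO replicate 1, and Rpl32 lost it in each of the 6 fits. The count was 2 without WT replicate 1 or 2 or KO replicate 2 or 3. Without KO replicate 2, 1 member had less.

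The H3K4me1 dip of the members was wider in KO, downstream and also upstream of the TSS. At 500 bp upstream, H3K4me1 covered 70.73, 64.63 and 65.85% of the members in WT and 62.2, 59.76 and 57.32% in KO. All genes had 61.29 to 61.67% in WT and 57.32 to 57.63% in KO there. At 1.5 kb downstream of the TSS, H3K4me1 covered 86.59, 86.59 and 82.93% of the members in WT and 68.29, 62.2 and 67.07% in KO. For all genes the shares were 65.79 to 66.25% in WT and 64.0 to 64.47% in KO. At 1 kb downstream the members had 37.8 to 42.68% in WT and 24.39% in each KO library, and all genes had 65.8 to 66.05% in WT and 62.33 to 62.86% in KO. The genotypes did not overlap at any of these distances, for the members or for all genes, and the gap was smaller for all genes. H3K4me3 at 1.5 kb downstream covered 73.17 to 76.83% of the members in WT and 81.71 to 87.8% in KO. At 1 kb upstream it covered 9.76 to 12.2% in WT and 18.29 to 25.61% in KO. When the length of H3K4me1 in the window was tested gene by gene, most members did not pass. Limma over 14885 promoters called Rpl10l with more H3K4me1 in KO (0.275% of promoters) and Rps21 with less (1.49% of promoters), and the median difference was -107.7 bp over 78 members and -16.33 bp over all promoters. Ribosome biogenesis genes had a median difference of -171.0 bp (23 genes, 0 called at an adjusted and 1 at an unadjusted p under 0.05, limma), against -26.33 bp for mitochondrial ribosomal protein genes and -37.67 bp for translation and TOP genes. Of all 14885 promoters, 1379 had an unadjusted p under 0.05 (limma). The median H3K4me1 length per library was 2868 ± 115.0 bp in WT and 2591 ± 17.3 bp in KO for ribosome biogenesis genes and 2601 ± 0.0 and 2330 ± 112.0 bp for the members (SD, n = 3), without overlap in either list. Mitochondrial ribosomal protein genes (3191 ± 16.7 and 3001 ± 0.0 bp) and all promoters (3228 ± 16.5 and 3132 ± 81.4 bp) did not overlap either. Translation and TOP genes did. Rps21 had 2601, 2801 and 2801 bp in WT and 1024, 824 and 1024 bp in KO (difference -1681 bp, SE 116, adjusted p = 0.0134, limma). That call was lost without WT replicate 3, when the count of members with less was 0. With the replicate number as a block, the calls at Rps21 and Rpl10l were both lost (adjusted p = 0.179 at each, limma). Without setting the medians equal, 1 member had more and 3 less. Within 1 kb of the TSS the median difference of the members was 36.5 bp. The distances named here, downstream and upstream, were chosen after the profiles had been seen.

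Read densities of H3K27ac and H3K4me1 were counted over the called region at each member, in ChIP reads per kb of called sequence. The regions were long, with a median of 29.6 kb for H3K27ac (2.8 to 270.0 kb) and 12.5 kb for H3K4me1 (1.4 to 177.0 kb), and the region of 53 of 79 and 44 of 78 members also held the promoter of another gene. A value is therefore that of the member's surroundings. The median H3K27ac density of the members was 83.1, 87.57 and 90.08 reads per kb in WT and 93.52, 91.94 and 77.54 in KO, with overlapping groups, against 63.57 to 67.98 and 59.96 to 69.94 over all 12289 genes. The median length of H3K27ac called per region was 23.73 ± 0.808 kb in WT and 26.73 ± 0.987 kb in KO for the members, and 16.67 ± 0.306 and 18.8 ± 0.2 kb for all genes (SD, n = 3), a rise of 12.6% and 12.8%. KO values lay above WT values in both.

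After normalisation for density, edgeR's quasi-likelihood test called 12 members with more and 4 with fewer H3K27ac reads per kb in KO. Of all genes tested 18.6% had more and 3.82% fewer, and the members' shares were 15.2% and 5.06%. The median log2 KO/WT was -0.01 over 79 members and 0.02 over all genes. Rpl13 was among the largest rises, with 125.8, 125.6 and 117.1 reads per kb in WT and 157.4, 169.6 and 130.8 in KO (log2 0.30, SE 0.0604, adjusted p = 0.0061, edgeR). Input reads moved with it: the log2 KO/WT of input density, scaled to the median region, was 0.58 at Rpl13, and the part of the input in this rise was not tested. Rps25 (log2 0.25, SE 0.0415, adjusted p = 0.00192, edgeR) and Rpl7l1 (log2 0.23, SE 0.0229, adjusted p = 4.03e-05, edgeR) followed, with input differences of -0.06 and 0.01. Smaller rises were called at Rpl19, Rps14, Rpl4, Rps28, Rpl23, Rpl23a and Rpl10a, with log2 changes of 0.07 to 0.20. Of these, Rpl4, Rps28, Rpl23, Rpl23a and Rpl10a turned to changes below 0 when library totals alone were used. With each library left out, Rpl23a kept its call only without WT replicate 3, Rpl23 only without WT replicate 2 and Rpl10a only without WT replicate 1 or 3, while the calls at Rpl13, Rps25, Rpl7l1, Rpl19, Rps14, Rpl4 and Rps28 held every time.

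Rpl17 had the largest fall of H3K27ac, with 90.82, 103.2 and 117.4 reads per kb in WT and 83.82, 71.98 and 78.6 in KO (log2 -0.41, SE 0.0904, adjusted p = 0.0101, edgeR). Its input difference was -0.24. Rpl31 had 82.65, 81.6 and 89.03 in WT and 66.72, 69.95 and 61.19 in KO (log2 -0.36, SE 0.0471, adjusted p = 0.000303, edgeR), with an input difference of -0.08. WT and KO libraries did not overlap at either gene. Rps9 (log2 -0.26, adjusted p = 0.0374, edgeR) and Rps15a (log2 -0.24, adjusted p = 0.00133, edgeR) also fell. Rps9 lost its call without WT replicate 2 or 3 or KO replicate 1 or 3, and Rpl17, Rpl31 and Rps15a kept theirs. Rpl19, whose H3K4me3 fold enrichment fell, had more H3K27ac (log2 0.20, SE 0.0216, adjusted p = 6.3e-05, edgeR) over a region of 124.4 kb. The balance of these counts depended on the normalisation: with library totals alone, which moved the median log2 of all genes from 0.02 to -0.17, 1 member had more and 53 had fewer (557 and 6091 of all genes), and over regions of like length with no correction for length 10 of 50 had more and 20 fewer (1484 and 994 of 4433 genes).

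H3K4me1 density differed little. The median over the members was 79.15 ± 1.67 reads per kb in WT and 77.94 ± 0.179 in KO, against 75.75 ± 0.219 and 74.52 ± 0.359 over all 15023 genes (SD, n = 3). edgeR called 5 members with more and 1 with fewer H3K4me1 reads per kb, where 7.58% of genes had more and 3.14% fewer. Rpl13 had the largest rise called (log2 0.35, SE 0.0801, adjusted p = 0.0178, edgeR), with an input difference of 0.42 in the H3K4me1 lists, whose part in the rise was not tested. It lost its call without WT replicate 1 or 2 or KO replicate 2 or 3. Rpl3l (log2 0.15), Rps14 (0.10) and Rpl19 (0.07) had smaller rises. Rps14 held its call with each library left out, Rpl3l only without WT replicate 1 or KO replicate 3, and Rpl19 only without WT replicate 2 or KO replicate 3. Rps16 fell from 95.59, 97.65 and 95.81 reads per kb in WT to 87.96, 86.41 and 87.04 in KO (log2 -0.11, SE 0.0212, adjusted p = 0.00764, edgeR). Without WT replicate 1, 2 or 3 or KO replicate 1, 3 members had more, and without KO replicate 2, 2 had more and 2 fewer. Of the 78 members, 9 had an input difference beyond 0.3 on the log2 scale in either direction, and without them 3 members had more. With library totals alone 3 had more and 3 fewer (868 and 741 of all genes), and over regions of like length 6 of 48 had more and 14 fewer (1673 and 1697 of 7135 genes).

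**Figure D4:**
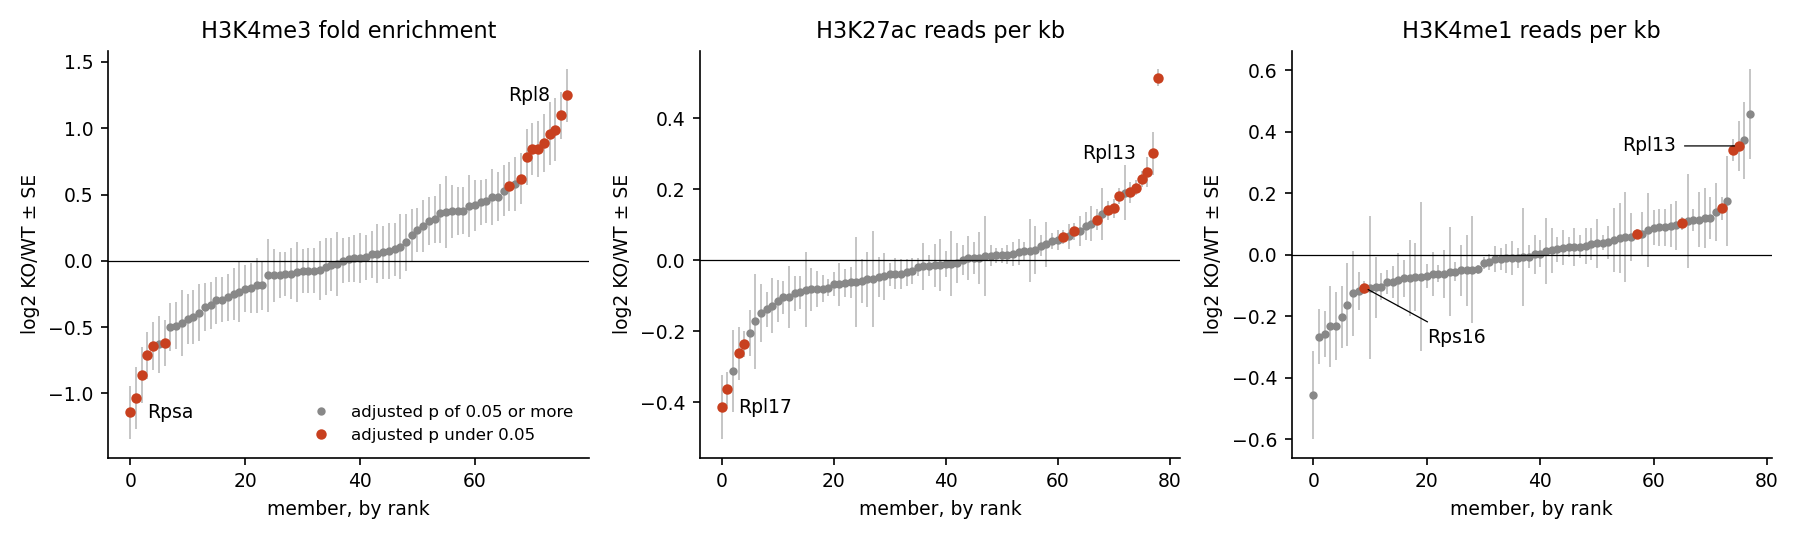
log2 KO/WT with its SE for each member, ranked within each panel, for H3K4me3 fold enrichment (77 members, limma), H3K27ac (79) and H3K4me1 (78) reads per kb (both edgeR). Red points have an adjusted p under 0.05, and the vertical scales differ. The medians were 0.01, -0.01 and -0.003, and the H3K4me3 panel spans the widest range, from Rpsa (-1.14) to Rpl8 (1.25).

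H3K27me3 was rare at the members. It was called in all 6 libraries at Rpl7, Rpl11 and Rps27rt, in 5 at Rps14, and in 1 to 3 at others, among them Rpl17, Rpl26, Rpl3, Rpl12 and Rpl3l. Of the canonical genes with it in all libraries, Rpl7 shares its window with the TSS of Rdh10, a retinol dehydrogenase gene. At Rps27rt the density was 59.68 to 65.67 reads per kb in WT and 60.94 to 61.56 in KO. Of 5 members tested, edgeR called 0 at an adjusted and 0 at an unadjusted p under 0.05. Of the 7493 genes tested, 4.28% were called at an adjusted and 1511 at an unadjusted p under 0.05.

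H3K9me3 was called at far more members than at other promoters. Within 2 kb of the TSS, a call was found at 47, 38 and 44 of 82 members in WT (57.32, 46.34 and 53.66%) and at 39, 26 and 32 in KO (47.56, 31.71 and 39.02%). WT and KO counts overlapped. For all protein-coding genes the shares were 10.08, 9.612 and 9.482% in WT and 9.045, 7.589 and 8.665% in KO. In total 64 members (78.05%) had a call in at least 1 library, against 15.88% of genes, and 12 had one in all 6 libraries, among them Rpl6, Rpl7a, Rpl10a, Rpl13, Rpl15, Rpl19, Rpl23, Rpl27a, Rpl32, Rpl39l and Rps10. Only 18 members had none. The calls lay mainly downstream of the TSS, and many did not cover it: they covered 12.2 to 18.29% of the members at the TSS, 24.39 to 45.12% at 500 bp and 24.39 to 51.22% at 1 kb downstream, and 1.22 to 7.32% at 1 kb upstream.

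The H3K9me3 calls at the members were weaker than those at other promoters. In WT replicate 1 they held a median of 36.6 ChIP reads per kb, against 49.8 for calls at other promoters, and 26.0 input reads per kb, against 22.1. In all 6 libraries the ChIP density at the members was lower than at other promoters (28.9 to 36.6 against 41.4 to 51.6 reads per kb) and the input density was higher (25.5 to 30.6 against 22.1 to 24.4). The median false discovery rate (FDR) of the calls at the members was 1e-06 to 3.16e-06 in WT and 0.000834 to 0.00212 in KO, while at other promoters it was 1.09e-19 or lower in every library. At an FDR under 0.01 the calls remained at 44, 35 and 41 members in WT and at 23, 18 and 23 in KO, and all 3 WT counts then exceeded all 3 KO counts. The same held over all protein-coding genes, with 9.74, 9.29 and 9.17% in WT and 8.44, 7.1 and 8.1% in KO. H3K9me3 in KO libraries was also called over less sequence in the whole genome (162.81 to 174.12 Mb against 187.41 to 193.45 Mb), and the part of this and of the input density in the members' counts was not tested.

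**Figure D5:**
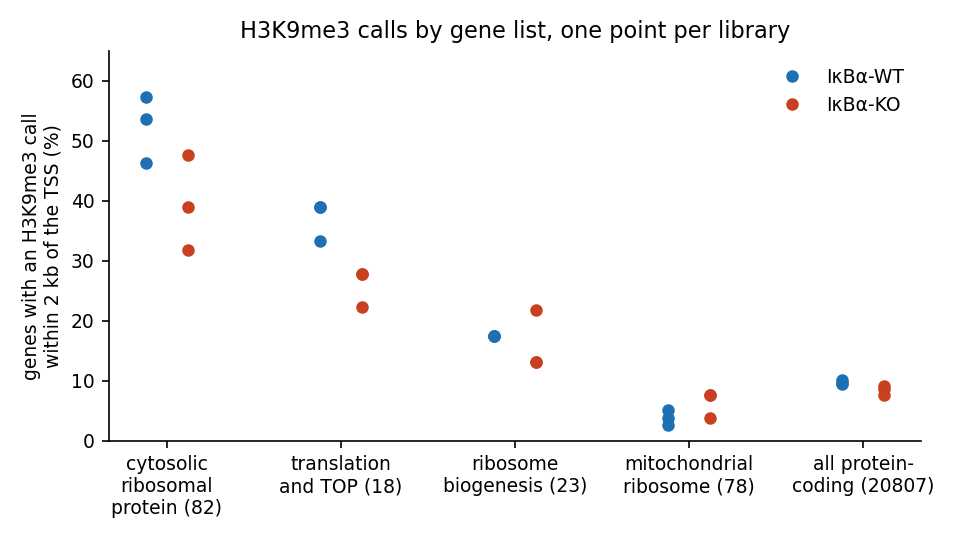
Share of genes (%) with an H3K9me3 call within 2 kb of the TSS, 1 point per library, for the members and for 4 comparison lists, with the number of genes in brackets. The members lay at 31.71 to 57.32%, above mitochondrial ribosomal protein genes (2.564 to 7.692%) and all protein-coding genes (7.589 to 10.08%) in every library. Translation and TOP genes were closest (22.22 to 38.89%), with a range that overlapped that of the members, and ribosome biogenesis genes lay at 13.04 to 21.74%.

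The lists of related genes differed among themselves in H3K9me3 calls. Mitochondrial ribosomal protein genes, whose products form the separate ribosome of that organelle, had H3K9me3 at 2 to 6 of 78 genes per library. Translation and TOP genes had it at 4 to 7 of 18, and ribosome biogenesis and RNA polymerase I genes at 3 to 5 of 23. When other genes were split into 5 equal groups by H3K4me3 fold enrichment, 5.82 to 7.39% of the 2287 in the highest group had H3K9me3, and 5.3 to 7.72% of the 2319 in the lowest.

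An H3K9me3 call in 3 of 3 WT and 0 of 3 KO libraries was found at 3 members, among them Rpl28 and Rps19, and no member had the reverse. Over all genes this pattern was found at 0.428% of promoters (89 of 20807). Members carried H3K9me3 more often to begin with: 64 of 82 had a call in any library, against 3305 of 20807 genes. Rpl28 is also a gene with less H3K4me3 fold enrichment in KO, and Rps19 one with more. The density test could be made for 13 members whose region was called in all 6 libraries. edgeR called 0 of these 13 at an adjusted and 0 at an unadjusted p under 0.05. Of 1632 genes, 1.53% were called at an adjusted and 236 at an unadjusted p under 0.05. The median density of the 13 members was 36.78 ± 3.09 reads per kb in WT and 33.8 ± 3.02 in KO (SD, n = 3), a difference within the spread. The densest were Rpl24, with 94.02 to 114.1 reads per kb in WT and 96.88 to 122.7 in KO, and Rpl39l, with 72.41 to 85.77 and 75.21 to 93.54.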

How the data were processed

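The deposited ChIP-seq lists of 30 libraries were used, and the 8 inputs entered only through the input counts in those lists. Per the submitters' processing notes the authors used Trim Galore 0.6.6, Bowtie2 2.4.4, SAMtools 1.15, deepTools 3.5.1, MACS2 2.2.7.1 and SICER 0.0.52, on GRCm38. Where these notes name SICER, the study's methods name epic2 0.0.52, used for marks other than H3K4me3. Reads of low mapping quality or with several alignments, and blacklisted sequence, had been removed, which can thin coverage where ribosomal protein exons resemble their many processed pseudogenes, and this was not tested. The aligner of H3K27ac and the methods for H3K9me3 were not given in the sources used here, and the antibody labelled for H3K27ac is that of H3K4me1, which differs from the one in the study's methods. For H3K4me3 the authors deposited a fold enrichment (a ratio over input), −log10 p-values and q-values, and a score per call, and no counts, so the number of reads behind a call is unknown. For the other 4 marks the authors deposited the count of ChIP and of input reads, a p-value, an FDR, a log2 fold change over input and a score per region, in bins of 200 bp. Calls had been made per library at an FDR or q-value under 0.05.

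A gene had a call when it overlapped TSS ± 2 kb by at least 1 bp, the TSS being the 5′ end of the GENCODE vM21 gene. H3K4me3 fold enrichment (log2, with no pseudocount, as every promoter tested had a call) and length, and H3K4me1 length, were tested with limma 3.58.1 on promoters called in all 6 libraries, with library medians set equal. Counts of merged regions called in all 6 libraries were tested with edgeR 4.0.16 (quasi-likelihood, TMM, called length as offset, mean of at least 10 reads) in R 4.3.3, and DESeq2 1.42.0 was an alternative. Tests were two-sided with Benjamini-Hochberg adjustment over all promoters or regions. Sequence, motif and figure steps ran in Python 3.11.15. The length of whole H3K4me3 calls and of H3K4me1 were measures added after the data were seen, with their alternatives. Other alternatives were windows, thresholds, centring, normalisation, a replicate block and each library left out. The edgeR tests of H3K27ac and H3K4me1 and the limma test of H3K4me3 fold enrichment were checked on simulated data. The limma tests of length and the edgeR tests of H3K27me3 and H3K9me3 were not. P-values measure the spread between 3 libraries per genotype. For each mark those 3 libraries shared an input, so the spread between inputs is not covered. Counts of reads cover counting error only.

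Members, gene lists and tests were chosen with earlier results of these data known. Named were Rplp0, Rplp1, Rplp2, Rpsa, every paralog, members lacking an active mark or carrying H3K27me3 or H3K9me3 (up to 12), the 4 largest rises and falls per measure past the threshold, and the 3 highest and lowest by H3K4me3. Other members are named where they were called, chosen after their values were seen. X-linked members were outside the rule. Some members enter the counts and figures and are not reported by name here.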

Additional observations from a re-analysis of the deposited data

How the results depend on the processing

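The numbers of members with a call in all 6 libraries (H3K4me3, H3K27ac, H3K4me1) or in any library (H3K9me3) stayed within 1.5 times under every window, threshold and left-out library tried. H3K27me3 was found at 19 members in place of 10 with the window from 5000 bp upstream to 100 bp downstream. Without TMM, 1 member had more and 53 fewer H3K27ac reads per kb in place of 12 and 4 (median log2 -0.203), and 3 had more and 3 fewer H3K4me1 reads per kb in place of 5 and 1 (median -0.02598). Over regions of like length with no offset, 20 had fewer H3K27ac and 14 fewer H3K4me1 reads per kb (median -0.03165). DESeq2 called 3 with fewer H3K4me1 reads per kb, and 3 had more without members of changed input. Without centring the median H3K4me3 difference in the window was 148.7 bp, and that of H3K4me1 was -203.3 bp with 3 members having less. Within 1 kb of the TSS 2 members had more H3K4me3, and 0 had more and 0 less H3K4me1 (median 36.5 bp). On the log2 scale 3 members had longer H3K4me3 calls. With canonical members only, 0 had more H3K4me1, since Rpl10l is a paralog. The cause of the other changes was not tested.

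With each library left out, 5 to 7 members were higher and 3 to 6 lower in H3K4me3 fold enrichment, 2 to 4 had more and 0 to 1 less H3K4me3 in the window, and 9 to 20 had longer calls. For H3K27ac 9 to 11 had more and 3 to 5 fewer reads per kb, and for H3K4me1 2 to 4 had more and 1 to 2 fewer, while 1 had more and 0 to 1 less H3K4me1 length. The median log2 changes of H3K4me3 fold enrichment (-0.04869 to 0.02935), H3K27ac (-0.0253 to 0.008966) and H3K4me1 (-0.00634 to 0.008388) lay on both sides of 0. Single genes turned direction without TMM for H3K27ac, among them Rpl10a (-0.1231), Rpl23 (-0.07492), Rpl23a (-0.1072), Rpl4 (-0.008646) and Rps28 (-0.04301). Rps28 also turned over regions of like length (-0.003565), and its H3K4me3 length within 1 kb was -44.67 bp.

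WT and KO libraries of the same number did not deviate together, with correlations of -0.0569 to 0.0276 between their deviations over the 6 measures, so the numbers were not taken as pairs. With the replicate block 9 members were higher and 7 lower in H3K4me3 fold enrichment, 15 had longer calls, and 0 had more and 0 less H3K4me1 length, in place of 1 and 1 (adjusted p = 0.179 for Rpl10l and Rps21, limma). Every H3K4me1 and H3K9me3 library correlated best with its own number, a hint from the data and not the design. Of 55 calls at members reported by name, 48 held with the block, and those lost were H3K4me3 fold enrichment at Rpl3, H3K4me3 length at Rpl32 and Rps3, H3K27ac at Rpl23a and Rpl10a, and H3K4me1 length at Rpl10l and Rps21. Fold enrichments come without counts and the H3K9me3 calls at members hold about 30 reads per kb, which limits what their differences can show.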
